A study of Mus musculus with 2 samples.

Results

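Piezo1 and Piezo2 encode the 2 PIEZO channels of the mouse, and their transcripts were followed here from cell to cell in cultured vascular smooth muscle cells (VSMCs). Both genes were found by symbol among the 32285 genes of the count table. They were measured in 13045 cells of 1 pooled droplet library, of which 6670 carried exactly 1 hashtag and could be placed in a culture. Primary aortic VSMCs of C57BL/6 mice came from young animals of 12 weeks and old animals of 58 to 78 weeks. The 4 cultures were young cells, old cells, young cells given Angiotensin II (AngII) at 100 nM over 48 h, and old cells that received siPiezo1, an siRNA against Piezo1, at 20 nM by the methods (the results text states another dose). The methods name 2 suppliers of cells and do not say which supplied this experiment. Each culture was labelled with antibodies that carry a DNA tag before mixing, and each culture is 1 sample, so no test between cultures was possible and every interval given here covers counting error only.

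PIEZO channels are large membrane proteins that open when the membrane is stretched and let calcium and other cations into the cell. Piezo1 is known for sensing flow and pressure in blood vessels, in endothelium and in smooth muscle. Piezo2 is known above all for touch and position sense in sensory neurons. Piezo1 (ENSMUSG00000014444) is a protein-coding gene of 69632 bases at 122481698 to 122551329 on the minus strand of mouse chromosome 8. Coordinates are from GENCODE vM21 (GRCm38), looked up by identifier because the authors' build was not given in the sources used here. Piezo2 is ENSMUSG00000041482 in the same table.

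The 250 bases before the RefSeq start of Piezo1 are shown because the states compared below are read from genes of cell division, contraction and the interferon response, and this stretch is where motifs linked to such genes can be looked for. The stretch lies at chr8:122551330-122551579 of GRCm38.p6, is written on the minus strand in the direction of the gene, and has its only GGGCGG, the letters bound by Sp1-type factors, in capitals.
Piezo1: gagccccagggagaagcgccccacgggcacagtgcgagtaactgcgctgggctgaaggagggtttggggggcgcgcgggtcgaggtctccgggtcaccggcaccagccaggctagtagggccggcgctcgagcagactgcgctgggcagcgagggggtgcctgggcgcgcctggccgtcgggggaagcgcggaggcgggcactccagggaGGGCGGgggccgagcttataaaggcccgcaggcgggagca
The stretch held 74% G and C, against a median of 52.4% over the same 250 bases of 32851 mouse promoters. GGGCGG on either strand was held by 32.7% of those promoters. None of the other letters searched on both strands was present: TTTGAA (cell cycle homology region, 16.0% of promoters), CCAAT (33.8%), TTTCCCGC (E2F, 0.895%), GGAAA (core of NFAT sites, 55.6%), the core of the interferon-stimulated response element, a GAAA followed after any 2 bases by another GAAA (2.98%), and the CArG box of contractile genes (1.47%). These counts describe letters in this window and not the binding of a factor. Of the 2 genes, 1 was matched in the promoter table.

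The cells and their tags set the precision of what follows. Tag 1 marked 3144 cells, tag 2 marked 497, tag 3 marked 1500 and tag 4 marked 1529, with a median of 6817 to 10663 UMIs (unique molecular identifiers, each counting 1 RNA molecule) per cell. The tags are named young (tag 1), old (tag 2), young + AngII (tag 3) and old + siPiezo1 (tag 4) by the numbers in the study's schematic, although the drawing leaves unstated what its numbers stand for. Libraries of all tags held VSMC transcripts, with Acta2 at 174 to 568 CPM (UMIs of a gene per 1000000 UMIs of the cells) and Tagln at 415 to 957 CPM. Myh11, the myosin heavy chain that defines mature VSMCs, was at only 1.94 to 7.89 CPM, and the fibroblast list Pdgfra, Dcn and Lum summed to 513 to 740 CPM. Ptprc of leukocytes, Cdh5 of endothelium and Epcam of epithelium were each below 0.5 CPM in every tag, and Tie1 was at 0 in all 4. Summed lists of other cells were low, with 5 macrophage genes at 6.15 to 11.7 CPM, 4 endothelial genes at 3.15 to 7.30 CPM, of which Pecam1 made 0.937 to 3.94 CPM, and 4 epithelial genes at 2.34 to 5.20 CPM. Median mitochondrial shares were 1.08% in tag 1, 1.84% in tag 2, 0.224% in tag 3 and 1.86% in tag 4.

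Piezo1 was highest in the young + AngII cells and lowest in the young cells, with the old and the siPiezo1-labelled old cells between them. Tag 1 gave 1726 Piezo1 UMIs or 71.6 CPM (95% exact Poisson interval 68.2 to 75). Tag 2 gave 500 UMIs or 89.6 CPM (82.0 to 97.9). Tag 3 gave 1618 UMIs or 108 CPM (103 to 114). Tag 4 gave 1399 UMIs or 86.9 CPM (82.4 to 91.5). In the order of levels, tag 3 stood 1.21-fold above tag 2 (1.09 to 1.34, exact binomial interval of the 2 counts) and tag 4 stood 1.21-fold above tag 1 (1.13 to 1.30). Tag 2 stood 1.25-fold (1.13 to 1.38) and tag 3 stood 1.51-fold (1.41 to 1.62) above tag 1. Of the 3287 genes of at least 50 CPM, 90% had ratios between 0.53 and 1.64 from tag 1 to tag 2. From tag 1 to tag 3 the range was 0.61 to 1.54, so Piezo1 lay inside both ranges. The neighbours tag 2 and tag 4 did not differ beyond counting error, with a ratio of tag 4 to tag 2 of 0.97 (0.87 to 1.08). The siRNA target therefore gives no check of the label of tag 4, and its cells are called the cells labelled siPiezo1.

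Piezo2 had another order of the tags. It was at 30.02 CPM (27.9 to 32.3) in tag 1 and 23.1 CPM (19.3 to 27.5) in tag 2. It was at 42.7 CPM (39.5 to 46.2) in tag 3 and 17.8 CPM (15.8 to 19.9) in tag 4. Tag 3 stood 1.42-fold above tag 1 (1.28 to 1.59), tag 2 stood at 0.77 of tag 1 (0.63 to 0.93) and tag 4 at 0.77 of tag 2 (0.62 to 0.95). The first 2 ratios lay inside the ranges over genes given above for Piezo1. The third lay below the 0.84 to 1.24 of 90% of genes. These intervals take UMIs as independent, while the variance of Piezo2 between cells, given below, was 1.32 to 1.68 times its mean. They are thus narrower than that spread would make them. The ratio of tag 2 to tag 1 was not stable: it was 0.89 (0.67 to 1.17) at 5000 UMIs per cell, 1.01 (0.77 to 1.32) among cells whose own tag held at least 3 times the UMIs of the next tag, 1.06 (0.75 to 1.46) in cells that had Y-linked UMIs but none of Xist, and 1.02 (0.67 to 1.58) in cells that had Xist but no Y-linked UMIs. Tag 1 held 1700 cells of the Y-linked kind and 154 of the Xist kind, against 97 and 313 in tag 2. In tag 1, Piezo2 was at 33.4 CPM (30.4 to 36.6) in the Y-linked and 22 CPM (15.2 to 30.7) in the Xist cells, whereas Piezo1 was at 74.2 and 74.3 CPM in them.

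At full depth, 53.1% of tag 1 cells, 37.8% of tag 2, 31.3% of tag 3 and 41.5% of tag 4 showed neither transcript. As cells differ in depth, the spread from cell to cell was read after every cell was thinned to 5000 UMIs, which leaves out 747, 21, 136 and 114 cells of tags 1 to 4. A Piezo1 UMI was then found in 30.1% of tag 1 cells (28.3 to 32.0, Clopper-Pearson interval), 34.9% of tag 2 (30.6 to 39.3), 40.0% of tag 3 (37.3 to 42.6) and 33.6% of tag 4 (31.1 to 36.1). The counts lay close to a Poisson draw with 1 mean for all cells of a tag, in which the variance equals the mean. The variance of Piezo1 was 1.05, 1.11, 1.16 and 1.05 times its mean in tags 1 to 4. Cells with at least 3 Piezo1 UMIs numbered 23, 8, 37 and 13, where a Poisson draw would give 15.0, 5.36, 25.6 and 12.7.

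Piezo2 was spread less evenly over the cells than a Poisson draw in each of the 4 tags. A Piezo2 UMI was found in 12.0% of tag 1 cells (10.7 to 13.3), 9.87% of tag 2 (7.35 to 12.9), 15.5% of tag 3 (13.7 to 17.6) and 6.50% of tag 4 (5.27 to 7.91). Its variance was 1.38, 1.68, 1.56 and 1.32 times its mean in tags 1 to 4. Cells with at least 3 Piezo2 UMIs numbered 14, 4, 19 and 3, where a Poisson draw would give 1.22, 0.174, 1.90 and 0.107. In tag 3, 1152 of 1364 cells had no Piezo2 UMI (84.5%, interval 82.4 to 86.3), above the 80.7% of the Poisson draw.

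**Figure D1:**
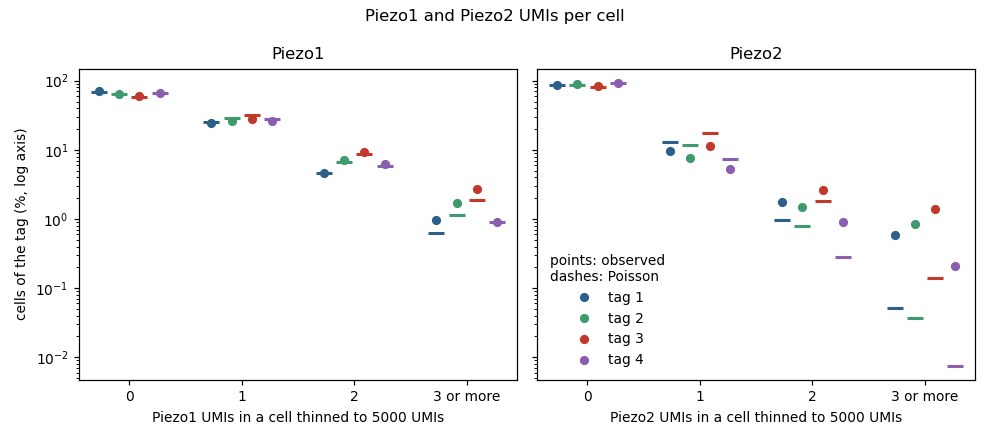
Share of the cells of each tag (percent, log axis) by the number of Piezo1 (left) or Piezo2 (right) UMIs in a cell thinned to 5000 UMIs; points are observed shares and dashes a Poisson draw of the same mean. Piezo1 points lie near their dashes, while Piezo2 points at 3 or more UMIs lie above theirs in all 4 tags (0.584% against 0.0509% in tag 1).

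The 2 transcripts were found in the same cells about as often as their separate shares would give. Among tag 1 cells, Piezo2 was seen in 90 of 722 with Piezo1 (12.5%, interval 10.1 to 15.1) and in 197 of 1675 without it (11.8%, 10.3 to 13.4). In tag 2 the shares were 7.83% of 166 (4.24 to 13.0) and 11% of 310 (7.72 to 15.0). In tag 3 they were 17.4% of 545 (14.3 to 20.9) and 14.3% of 819 (12.0 to 16.9). In tag 4 they were 7.16% of 475 (5.01 to 9.86) and 6.17% of 940 (4.72 to 7.90). The pairs of intervals overlap in every tag. Cells with both numbered 90, 13, 95 and 34, against 86.4, 16.4, 84.7 and 30.9 from the product of the shares.

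The part of free RNA was bounded with Ifit3 for the cells of tag 2. Near-empty barcodes of at most 100 UMIs held Piezo1 at 69.2 CPM (58.4 to 81.4) and Piezo2 at 25.8 CPM (19.4 to 33.6), near the levels in cells. Ifit3, an interferon-induced gene, was at 135 CPM in those barcodes and at 9.32 CPM in tag 2, where it was lowest. If all Ifit3 of tag 2 were free RNA, that RNA would make up 6.91% of the tag's UMIs and would bring at most 4.78 CPM of Piezo1 and 1.78 CPM of Piezo2. This bound covers tag 2 alone, and in tag 1 Ifit3 was at 484 CPM, so it gives no such bound there.

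Dividing cells were then compared with the others inside each tag. Thinned cells were placed by the summed UMIs of Mki67, Top2a, Cdk1, Birc5, Ube2c, Prc1, Cenpf and Tpx2, genes of mitosis, with at least 10 as dividing, 3 to 9 as middle and 0 to 2 as low. Dividing cells numbered 407, 69, 83 and 260 in tags 1 to 4, with 234, 32, 111 and 111 cells near the limit at 8 to 12 UMIs. Piezo1 did not differ beyond counting error between dividing and low cells. In tag 1 it was at 70.4 CPM (62.2 to 79.5) in dividing and 72.1 CPM (67.5 to 76.9) in low cells. In tag 2 the values were 87.8 and 91.3 CPM, in tag 3 they were 110 and 107 CPM, and in tag 4 they were 91.4 and 81.0 CPM. The ratio of dividing to low cells was 0.98 (0.85 to 1.12), 0.96 (0.74 to 1.24), 1.03 (0.83 to 1.26) and 1.13 (0.98 to 1.29), each interval including 1. With the limit at 5 UMIs, the ratio of tag 4 was 1.18 (1.05 to 1.33). The median ratio over the 3287 genes of at least 50 CPM was 0.98 to 1.0. The ratio of the middle to the low class was 1.06 (0.93 to 1.20), 0.97 (0.75 to 1.24) and 1.04 (0.93 to 1.16) in tags 1 to 3. In tag 4 it was 1.27 (1.10 to 1.47), with the middle class at 103 CPM (90.4 to 116), and only there did the interval exclude 1. The difference between tags was not tested.

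Piezo2 was lower in dividing than in low cells in 3 of the 4 tags by value, and in 2 of them the interval for counting error excluded 1. These intervals take UMIs as independent. In thinned cells, however, the variance of Piezo2 was 1.38 and 1.68 times its mean in tags 1 and 2. The intervals are thus narrower than the spread between cells would make them. In tag 1 Piezo2 was at 24.1 CPM (19.4 to 29.6) in dividing and 30.7 CPM (27.7 to 33.9) in low cells, a ratio of 0.79 (0.62 to 0.99). Whether this interval would exclude 1 with the spread between cells counted was not tested. In tag 2 it was at 11.5 CPM (5.54 to 21.2) on 10 UMIs and at 28.4 CPM (23.2 to 34.3), a ratio of 0.41 (0.19 to 0.78). The ratio was 0.74 (0.49 to 1.07) in tag 3 and 1.06 (0.76 to 1.46) in tag 4. With the limit for dividing cells at 5 UMIs, the ratio of tag 1 was 1.01 (0.85 to 1.20), and among tag 2 cells with a clear tag it was 0.79 (0.24 to 1.97). The middle class of tag 1 held more Piezo2 than its low class, at 38.8 CPM (33.4 to 44.9) and a ratio of 1.27 (1.06 to 1.51). So did that of tag 4, at 27.7 CPM (21.4 to 35.1) and a ratio of 1.77 (1.31 to 2.37), while in tag 2 the ratio was 0.47 (0.24 to 0.86).

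Cells in DNA replication were looked at after the genes that go with Piezo1, given further below, had been seen. They were placed by the summed UMIs of Mcm2, Mcm3, Mcm4, Mcm5 and Mcm6 (the replicative helicase), Pcna (the polymerase clamp), Rrm2 (ribonucleotide reductase) and E2f1, with at least 4 as replicating and 0 as low. Piezo1 was higher in the 219 replicating cells of tag 1, at 84.4 CPM (72.4 to 97.9) against 70.5 CPM (65.2 to 76.2), a ratio of 1.20 (1.01 to 1.42). In the 67 cells of tag 2 it was at 116 CPM (94.3 to 142) against 89.8 CPM (77.8 to 103), a ratio of 1.30 (1.01 to 1.66). The ratio was 1.06 (0.92 to 1.22) in tag 3 and 1.14 (0.98 to 1.34) in tag 4, so its value was above 1 in all 4 tags and its interval in 2. Most genes had ratios between 0.75 and 1.57 in tag 1 and between 0.65 and 1.72 in tag 2 for these classes. The ratios of Piezo1 lay inside both ranges. Replicating cells were also deeper than low cells, with medians of 8419 and 7454 UMIs in tag 1 and 11665 and 10527 in tag 2. The medians were 10768 and 9755 UMIs in tag 3 and 10632.5 and 9433 in tag 4. The part of depth in these ratios was not tested. The classes were chosen after the genes that go with Piezo1 had been seen in the same cells, so these intervals are not independent of those genes. Which intervals excluded 1 depended on the limit: at 3 UMIs the ratios of tags 1, 2 and 4 were 1.12 (0.97 to 1.29), 1.23 (0.99 to 1.53) and 1.19 (1.04 to 1.37), and at 6 UMIs they were 1.20 (0.88 to 1.62), 1.49 (1.02 to 2.12) and 1.33 (1.06 to 1.65). Among cells with a clear tag, both intervals included 1, at 1.18 (0.98 to 1.42) in tag 1 and 1.30 (0.83 to 1.99) in tag 2, and without cells that had both Xist and Y-linked UMIs the ratio of tag 1 was 1.20 (0.99 to 1.44). The shares of cells with a Piezo1 UMI at equal depth were 40.6% and 28.4% in tag 1, 40.3% and 33.5% in tag 2, 43.5% and 39.5% in tag 3, and 39.2% and 31.7% in tag 4. Piezo2 had ratios of 0.85 (0.62 to 1.14), 0.30 (0.12 to 0.66), 0.83 (0.65 to 1.04) and 1.12 (0.78 to 1.59) for these classes, that of tag 2 resting on 7 UMIs. The intervals of Piezo2 take UMIs as independent and are narrower than the spread between cells would make them.

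Contractile cells were those with at least 10 UMIs of Acta2, smooth muscle actin, at 5000 UMIs per cell, and the low class had none. They numbered 112, 31, 36 and 22 in tags 1 to 4, so the intervals are wide. Piezo1 was at 72.1, 74.4, 91.7 and 87.9 CPM in contractile and at 70.9, 92.2, 113 and 84.0 CPM in low cells. The ratios were 1.02 (0.79 to 1.30), 0.81 (0.53 to 1.19), 0.81 (0.55 to 1.16) and 1.05 (0.66 to 1.58). In tag 2 the ratio was 0.48 (0.24 to 0.89) among cells with a clear tag. Other limits gave intervals in tag 2 that included 1. They were 0.93 (0.71 to 1.21) at 5 Acta2 UMIs, 0.65 (0.29 to 1.26) at 20 and 0.96 (0.66 to 1.38) with classes made at 3000 UMIs per cell. In tag 3 other limits gave intervals below 1, with 0.79 (0.64 to 0.95) at a limit of 5 Acta2 UMIs and 0.71 (0.50 to 0.99) with classes made at 3000 UMIs per cell. Any Acta2 against none, an alternative chosen after the values were seen, gave 1.06 (0.96 to 1.17), 0.95 (0.79 to 1.14), 0.90 (0.81 to 0.998) and 1.10 (0.98 to 1.24).

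Piezo2 stood higher in contractile cells by value in all 4 tags. It was at 38.1, 33.4, 56.2 and 26.8 CPM in contractile and at 28.4, 22, 39.5 and 15.4 CPM in low cells. The ratios were 1.34 (0.93 to 1.89), 1.51 (0.77 to 2.77), 1.42 (0.84 to 2.26) and 1.74 (0.69 to 3.66), each interval including 1. Other limits gave intervals above 1 in tag 4, with 1.72 (1.07 to 2.64) at a limit of 5 UMIs and 2.04 (1.04 to 3.65) at 3000 UMIs per cell, and a limit of 20 UMIs gave 2.73 (1.19 to 5.50) in tag 2. At 5 UMIs the ratios of tags 1 to 3 were lower, at 1.18 (0.91 to 1.51), 1.18 (0.69 to 1.93) and 1.09 (0.81 to 1.45). At 3000 UMIs per cell they were also lower, at 1.11 (0.76 to 1.57), 1.31 (0.65 to 2.43) and 1.33 (0.85 to 1.99). At 20 UMIs tags 1 and 3 gave 1.20 (0.61 to 2.12) and 2.13 (0.69 to 5.02). Any Acta2 against none, the split chosen after the values were seen, gave 1.23 (1.05 to 1.44), 1.12 (0.78 to 1.61), 1.13 (0.96 to 1.33) and 1.52 (1.18 to 1.95). All these intervals take UMIs as independent, while the variance of Piezo2 in thinned cells was 1.38, 1.68, 1.56 and 1.32 times its mean. They are thus narrower than the spread between cells would make them. Contractile cells of tag 4 had a median mitochondrial share of 0.773% against 1.94% in its low cells, and those of tag 2 had 0.683% against 1.86%; the part of this in the Piezo2 ratios was not tested.

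Interferon cells, with at least 3 UMIs of Ifit3, could be compared in tag 1 only, which held 979 of them beside 557 cells with none. The other tags had 2, 7 and 7 such cells, on 0, 6 and 3 Piezo1 UMIs. In tag 1 Piezo1 was at 70.1 CPM (64.3 to 76.3) in interferon and 74.2 CPM (67.2 to 81.9) in low cells, a ratio of 0.94 (0.83 to 1.08). Piezo2 was at 35.3 CPM (31.2 to 39.8) and 29.3 CPM (24.9 to 34.2), a ratio of 1.21 (0.99 to 1.48). Neither transcript differed beyond counting error between these classes. Read the other way, at 5000 UMIs, the list of 8 interferon genes was at 0.93 (0.91 to 0.96) in tag 1 cells with a Piezo1 UMI relative to those without. For Piezo2 it was at 1.04 (1.01 to 1.08), with Ifit3 at 1.09 (1.01 to 1.17). The 8 genes were mixed for Piezo2 in tag 1, with 4 intervals above 1 and 2 below. The 2 below were Isg15 at 0.93 (0.88 to 0.99) and Irf7 at 0.88 (0.79 to 0.99). Over all genes, 10.6% had an interval above 1 there. In tags 2 to 4 the list was at 0.66 (0.49 to 0.89), 0.92 (0.85 to 1.0) and 1.15 (0.98 to 1.35) for Piezo1, and at 0.58 (0.31 to 1.0), 0.99 (0.88 to 1.11) and 1.37 (1.03 to 1.80) for Piezo2. The intervals of the list and its genes count UMIs of 1 cell as independent, so they are narrower than the spread between cells would make them. Whether any would exclude 1 with that spread counted was not tested.

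**Figure D2:**
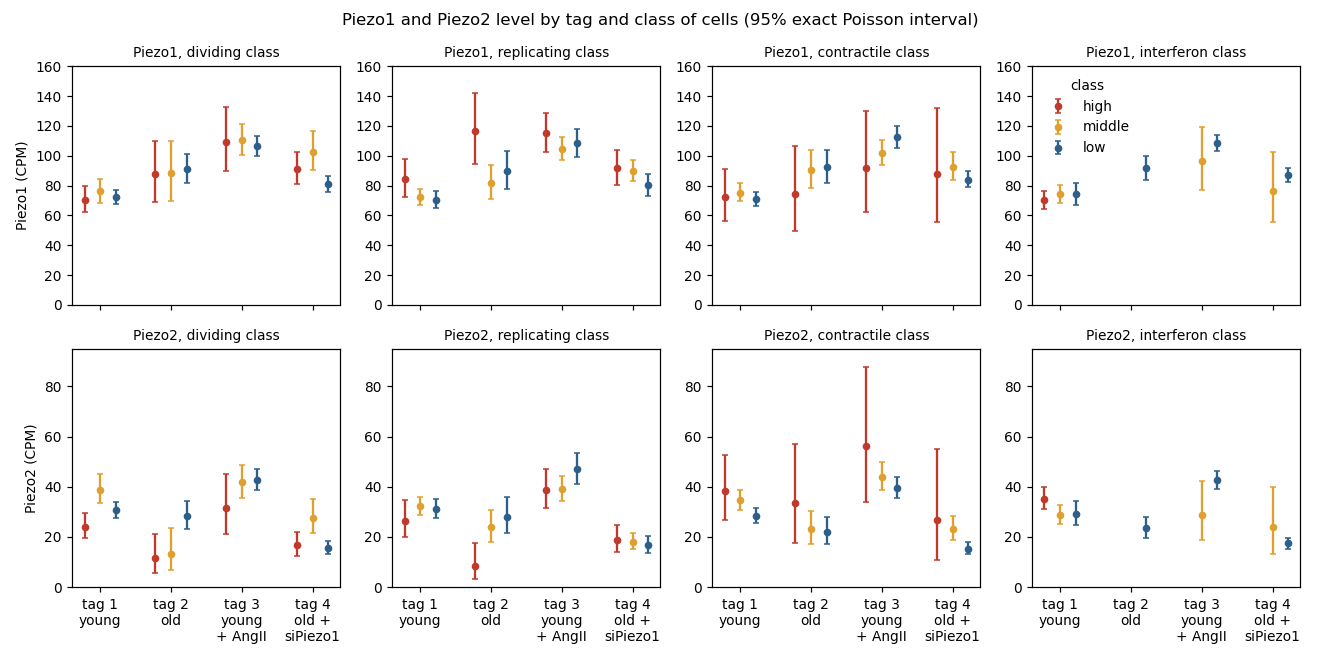
Level of Piezo1 (top) and Piezo2 (bottom) in CPM by tag, in the high, middle and low class of 4 cell states, with 95% exact Poisson intervals; classes of fewer than 20 cells are not drawn. By division class, Piezo1 lies close together within a tag (70.4, 76.2 and 72.1 CPM in tag 1), with tag 3 above tag 1 in each class, and Piezo2 of tags 1 to 3 is lower in the dividing than in the middle and low class.

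Most classes with many cells showed the difference of Piezo1 between tags that all cells showed. The ratio of tag 3 to tag 1 was 1.56 (1.23 to 1.96) among dividing cells, 1.59 (1.45 to 1.75) among cells without Acta2, 1.46 (1.31 to 1.64) among cells without Ifit3 and 1.36 (1.13 to 1.65) among replicating cells, and among the few contractile cells it was 1.27 (0.80 to 1.97). The ratio of tag 2 to tag 1 was 1.25 (0.95 to 1.61) among dividing cells and 1.27 (1.12 to 1.44) among low cells, 1.30 (1.13 to 1.49) without Acta2, 1.23 (1.08 to 1.41) without Ifit3 and 1.03 (0.65 to 1.61) among contractile cells. Among cells with Xist and no Y-linked UMIs the ratio of Piezo1 was 1.18 (0.95 to 1.47) from tag 1 to tag 2 and 1.28 (0.97 to 1.69) from tag 1 to tag 3, and among Y-linked cells it was 1.38 (1.13 to 1.67) and 1.49 (1.36 to 1.63). The ratio of tag 4 to tag 2 had an interval that included 1 in all classes compared, from 0.79 (0.62 to 1.01) among replicating to 1.18 (0.65 to 2.11) among contractile cells. For Piezo2, tag 3 stood above tag 1 by 1.39-fold (1.21 to 1.60) among cells low in division genes and 1.45-fold (1.22 to 1.74) without Ifit3. The Piezo2 ratio of tag 4 to tag 2 was 0.55 (0.43 to 0.71) among cells low in division genes and 1.44 (0.72 to 3.18) among dividing cells. The difference between these 2 ratios was not tested. Here too the intervals of Piezo2 take UMIs as independent and are narrower than the spread between cells would make them.

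Depth, RNA quality and the strength of the tag moved with some of these levels. When tag 1 cells were put in 4 equal bins by total UMIs, Piezo1 went from 63.9 CPM (55.4 to 73.3) in the shallowest to 78.4 CPM (73.0 to 84.0) in the deepest, and Piezo2 from 20.5 CPM (15.8 to 26.1) to 37.4 CPM (33.7 to 41.4). In tag 3 Piezo2 went the other way, from 50.3 CPM (40.9 to 61.3) to 36.9 CPM (32.1 to 42.2), and in tag 4 it went from 10.3 CPM (6.46 to 15.6) to 22.2 CPM (18.7 to 26.2). By mitochondrial share, Piezo1 of tag 4 stayed at 82.8 to 95.6 CPM, while Piezo2 of tag 4 was at 27.2 CPM (22.8 to 32.3) in the lowest and 11.8 CPM (8.50 to 16.1) in the highest bin. From the shallowest to the deepest bin by total UMIs, Piezo1 of tag 2 went from 69.6 to 97.0 CPM. In tags 3 and 4 Piezo1 went from 105 to 107 CPM and from 85.7 to 93.0 CPM. The part of depth, RNA quality and tag strength in the differences between tags and between classes of cells was not tested.

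The siRNA label was also followed along the hashtag itself. Piezo1 was at 85.0 CPM (75.9 to 95) in the bin of tag 4 cells with the fewest tag UMIs (median 46) and at 89.8, 87.4 and 85.3 CPM (76.9 to 94.3 in the last) in the other 3, the last with a median of 135. In tag 1 it went from 62.3 CPM (55.8 to 69.4) to 79.4 CPM (72.9 to 86.3) with tag UMIs. Piezo2 went from 42.1 CPM (36.8 to 48.0) to 24.7 CPM (21.2 to 28.7) in tag 1 and from 53.8 CPM (46.4 to 62.0) to 34.4 CPM (28.9 to 40.7) in tag 3. Tag 2 and tag 4 had a median of only 76 and 67 tag UMIs against limits of 52 and 41, and only 179 and 482 of their cells had a tag 3 times the next.

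**Figure D3:**
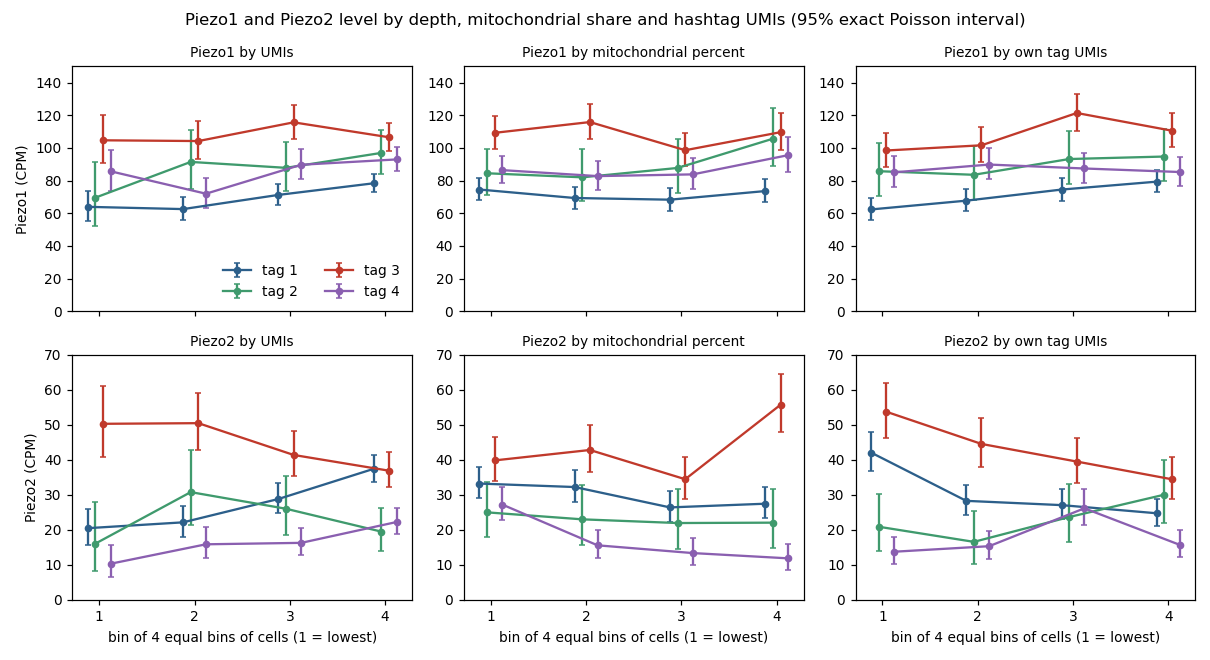
Level of Piezo1 (top) and Piezo2 (bottom) in CPM in 4 equal bins of the cells of each tag, ordered by total UMIs, mitochondrial share and UMIs of the own tag, with 95% exact Poisson intervals. Piezo1 of tag 4 is flat over tag UMIs (85.0 to 89.8 CPM), and Piezo2 of tags 1 and 3 is highest where the tag is weakest (42.1 and 53.8 CPM).

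The genes that go with Piezo1 in the same cell were read as the ratio of their CPM in cells with a Piezo1 UMI to that in cells without, at 5000 UMIs, over 3286 genes of at least 50 CPM. The median ratio was 1.01 to 1.02 in every tag, and 90% of genes lay between 0.91 and 1.18 in tag 1 and between 0.79 and 1.33 in tag 2. In tag 3 they lay between 0.88 and 1.20 and in tag 4 between 0.87 and 1.19. Genes named at each end were picked by these same ratios, so their intervals are not independent of the choice. Ranked by their lowest ratio over the 4 tags, the leading genes were Rrm2, Atad2, Sgcd, Flrt2 and Smurf2. Rrm2 makes the building blocks of DNA and had ratios of 1.21 (0.99 to 1.48), 1.23 (0.84 to 1.79), 1.20 (0.99 to 1.45) and 1.46 (1.17 to 1.81) in tags 1 to 4. Atad2, a bromodomain protein bound to replicating chromatin, had 1.35 (1.13 to 1.61), 1.29 (0.88 to 1.86), 1.18 (0.98 to 1.43) and 1.24 (1.03 to 1.49). Smurf2, a ubiquitin ligase of the TGF-beta pathway, had 1.14 (1.01 to 1.29), 1.34 (1.03 to 1.74), 1.15 (1.04 to 1.26) and 1.22 (1.05 to 1.42), with every interval above 1. Sgcd, a sarcoglycan of the muscle membrane, ran from 1.16 to 1.25 and Flrt2, an adhesion protein of the cell surface, from 1.14 to 1.18. All 4 ratios of Flrt2, and those of Smurf2 in tags 1 and 3, lay inside the ranges of 90% of genes.

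The summed list of the 8 replication genes holds Rrm2 and was taken up because of that ranking, so it is not independent of it. It stood above 1 in each tag, at 1.17 (1.08 to 1.27), 1.21 (1.03 to 1.41), 1.14 (1.05 to 1.24) and 1.18 (1.08 to 1.29). Without Rrm2 it was at 1.17 (1.07 to 1.27), 1.20 (1.01 to 1.43), 1.13 (1.03 to 1.23) and 1.13 (1.03 to 1.25). Of its 8 members, 7, 7, 6 and 8 had a ratio above 1 in tags 1 to 4, and 2, 1, 2 and 3 had an interval above 1. Over all genes, 58.4%, 52.5%, 56.6% and 53.3% had a ratio above 1 and 9.74%, 6.18%, 7.94% and 7.15% an interval above 1, and 506 of 3286 genes (15.4%) had a ratio above 1 in all 4 tags. The list of mitotic genes was at 1.0 (0.95 to 1.04), 0.95 (0.86 to 1.05), 1.07 (1.0 to 1.15) and 1.09 (1.03 to 1.15). The list of VSMC genes was below 1 in tag 3, at 0.85 (0.81 to 0.88), and at 1.03 (0.99 to 1.06), 1.10 (1.04 to 1.17) and 0.93 (0.89 to 0.98) in tags 1, 2 and 4. Of its 9 members, 7, 6, 1 and 2 had a ratio above 1 in tags 1 to 4. An interval lay above 1 for 1, 1, 0 and 0 of them and below 1 for 0, 0, 4 and 2. The 1 above in tag 2 was Tagln, at 1.26 (1.15 to 1.37), with Acta2 at 0.94 (0.84 to 1.06). UMIs of 1 cell are not independent, so these intervals are narrower than the spread between cells would make them.

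At the other end, Higd2a, Ndufa6, Krtcap2, Ifit3 and Mrpl54 were lowest in cells with Piezo1. Higd2a and Ndufa6 take part in the respiratory chain and Mrpl54 belongs to the mitochondrial ribosome. Higd2a had ratios of 0.88 (0.80 to 0.97), 0.83 (0.66 to 1.05), 0.86 (0.75 to 0.98) and 0.87 (0.77 to 0.99). Krtcap2, a subunit of the enzyme that adds sugars to new proteins, ran from 0.89 to 0.91. Ifit3 was at 0.92 (0.87 to 0.98) in tag 1, where its counts are high, and had few counts in the other tags.

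The same measure was applied to Piezo2 after the result for Piezo1 was known. Cells with Piezo2 numbered 287, 47, 212 and 92 in tags 1 to 4, and 90% of genes had ratios between 0.85 and 1.25 in tag 1 and between 0.62 and 1.46 in tag 2. Of 3287 genes, 342 (10.4%) had a ratio above 1 in all 4 tags and 285 (8.67%) a ratio below 1 in all 4. The genes named at each end were picked by these same ratios. As for Piezo1, UMIs of 1 cell are not independent. The intervals for genes and lists with Piezo2, here and below, are thus narrower than the spread between cells would make them. Inhba, which encodes the activin A subunit, led with 1.35 (1.20 to 1.51), 1.68 (1.31 to 2.14), 1.33 (1.24 to 1.42) and 1.37 (1.14 to 1.63). Chst11, a chondroitin sulfotransferase, had 1.33 (1.11 to 1.58), 1.39 (0.81 to 2.26), 1.59 (1.38 to 1.82) and 2.11 (1.48 to 2.94). Gpc6, a cell-surface heparan sulfate proteoglycan, had 1.29 (1.11 to 1.5), 1.61 (1.07 to 2.35), 1.35 (1.13 to 1.60) and 1.41 (1.0 to 1.94). Tes, a focal adhesion protein, ran from 1.27 to 1.36, and Tbc1d1, a regulator of Rab proteins, from 1.28 to 1.93.

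The summed UMIs of the VSMC list, of which Acta2 and Tagln are a large part, were higher in cells with Piezo2, at 1.11 (1.06 to 1.17), 1.54 (1.42 to 1.67), 1.11 (1.06 to 1.17) and 1.71 (1.58 to 1.85) in tags 1 to 4. Tagln, an actin-binding protein of smooth muscle, stood at 1.23 (1.13 to 1.33), 1.61 (1.42 to 1.81), 1.16 (1.08 to 1.25) and 2.10 (1.87 to 2.36). Acta2 stood at 1.05 (0.96 to 1.15), 1.93 (1.65 to 2.23), 1.19 (1.06 to 1.33) and 2.07 (1.72 to 2.48). Tpm2, a tropomyosin, stood at 1.06, 0.99, 0.95 and 1.22. Of the 9 members, 6, 5, 7 and 7 had a ratio above 1 in tags 1 to 4, and 1, 4, 2 and 4 had an interval above 1. Over all genes, 53.2%, 47.8%, 55.4% and 51.2% had a ratio above 1 in cells with Piezo2. An interval above 1 was held by 10.6%, 4.32%, 13.4% and 6.60% of all genes. Smtn, smoothelin, was below 1 by value in every tag, at 0.80 (0.41 to 1.41), 0.85 (0.22 to 2.34), 0.86 (0.45 to 1.53) and 0.47 (0.15 to 1.12).

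Genes lowest in cells with Piezo2 were Dazap1, Serpina3g, Hmmr, Mmp3 and Fmo2. Mmp3, a matrix-degrading metalloproteinase, had ratios of 0.71 (0.63 to 0.79), 0.58 (0.45 to 0.74), 0.81 (0.73 to 0.89) and 0.64 (0.57 to 0.72), each below 1. Hmmr, a spindle and hyaluronan-binding protein, had 0.77 (0.61 to 0.96), 0.33 (0.09 to 0.86), 0.59 (0.34 to 0.97) and 0.61 (0.34 to 1.02). Dazap1, an RNA-binding protein, ran from 0.51 to 0.73, Serpina3g, a serine protease inhibitor, from 0.41 to 0.74, and Fmo2, a monooxygenase, from 0.56 to 0.81. The mitotic list was at 0.83 (0.77 to 0.88), 0.74 (0.61 to 0.88), 0.92 (0.84 to 1.02) and 1.02 (0.92 to 1.13).

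**Figure D4:**
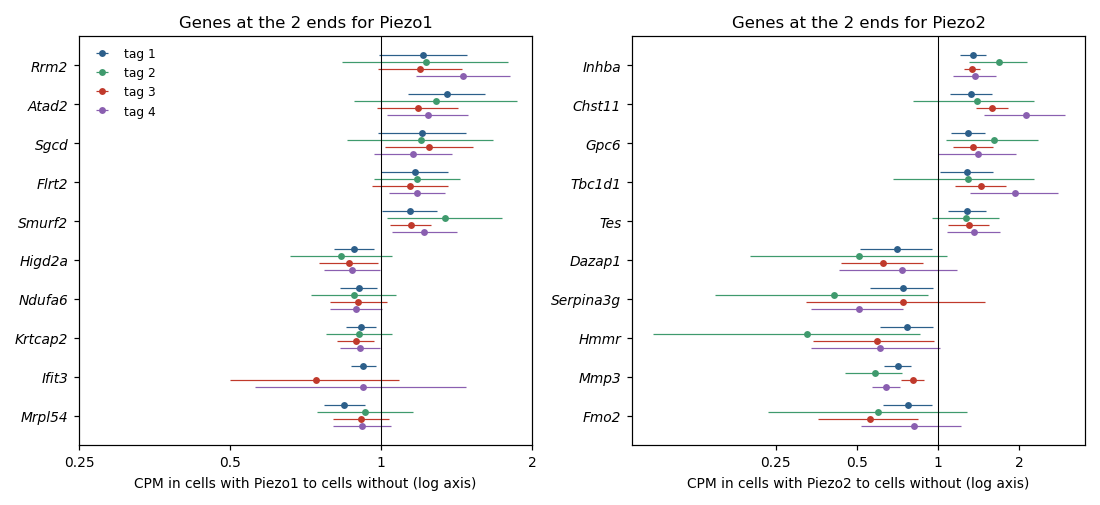
Ratio of CPM (log axis) in cells with a Piezo1 (left) or Piezo2 (right) UMI to that in cells without, for the 5 genes at each end, by tag, with 95% exact binomial intervals at 5000 UMIs per cell; Ifit3 of tag 2, at 0 in cells with Piezo1, is not drawn. At the upper end, ratios are 1.14 to 1.46 for Piezo1 and reach 2.11 for Piezo2 (Chst11 in tag 4). Fewer cells hold Piezo2, in tag 4 92 against 475 with Piezo1, and the 95th percentile over all genes there is 1.36 against 1.19.

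Over groups of cells, the levels of the 2 channels showed little correlation. Each tag was divided into dividing, contractile, interferon and other cells, and 10 groups had at least 50 cells. Across them the log2(CPM + 1) of Piezo1 and Piezo2 had a Pearson correlation of -0.081. The genes most like Piezo1 were Hbegf (0.956), an EGF-family growth factor, Rtn4 (0.948), Cd44 (0.948), Wincr1 (0.948) and Sh3kbp1 (0.947). Those most like Piezo2 were Hspb1 (0.960), a small heat shock protein, Timp3 (0.954), an inhibitor of metalloproteinases, Ecm1 (0.949), Vegfc (0.946) and Csf1 (0.944). The 95th percentile over all genes was 0.802 for Piezo1 and 0.815 for Piezo2. The median was 0.146 for Piezo1 and -0.093 for Piezo2, so the correlation between the 2 channels was near that of a typical gene. Groups of 1 tag share a culture and 4 of the 10 come from tag 1, so the correlations describe mostly the order of 4 cultures.

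A list of 38 genes that modulate, accompany or act after PIEZO channels was read beside them, of which 20 reached 50 CPM over all cells. From tag 1 to tag 2, 2 of the 20 stood over 1.5-fold higher and 2 over 1.5-fold lower, where 7.39% and 9.16% of all 3287 genes did. From tag 1 to tag 3, 1 was higher and 0 were lower, where 5.69% and 6.85% of all genes were. From tag 2 to tag 4, 0 were higher and 0 lower, where 1.19% and 0.821% of all genes were. The list's median ratios were 1.03, 1.21 and 0.95, beside 1.02, 1.04 and 1.0 over all genes. Tag 1 enters the first pair of comparisons, and tag 2 the first and the last.

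Among proteins that bind or tune the channels, Stom, a membrane protein related to the PIEZO modulator Stoml3, was at 35.5 CPM in tag 1, 76.9 CPM in tag 2, 31.7 CPM in tag 3 and 73.1 CPM in tag 4. Stom was thus high in both tags named old and low in both named young, 2.16-fold from tag 1 to tag 2. The same tags differed in sex transcripts. Cells with Y-linked UMIs and no Xist numbered 1700, 97, 833 and 211 in tags 1 to 4. Those with Xist and no Y-linked UMIs numbered 154, 313, 94 and 1021. Age and sex of the cells cannot be told apart in these levels. Mdfic, an auxiliary subunit of PIEZO channels, was at 59.6, 47.3, 51.9 and 42.5 CPM. Stoml3 itself had at most 0.332 CPM. Atp2a2, the calcium pump SERCA2, known to restrain Piezo1, ran from 158 CPM in tag 2 to 214 CPM in tag 3, and Tmem120a from 54.7 to 65.2 CPM.

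Of other mechanically gated channels, Tmem63b was at 47.6 CPM in tag 1, 73.5 CPM in tag 2, 61.1 CPM in tag 3 and 72.0 CPM in tag 4, a ratio of 1.55 from tag 1 to tag 2. Tmem63a was at 9.0 to 10.4 CPM and the potassium channel Kcnk2 at 6.51 to 12.7 CPM. Tmem63c and Kcnk4 were each below 0.5 CPM in every tag.

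Among adhesion genes that couple PIEZO channels to the matrix and to neighbouring cells, Itga5, the fibronectin receptor subunit, was at 116 CPM in tag 1, 72.6 CPM in tag 2, 204 CPM in tag 3 and 66.1 CPM in tag 4. Its ratio was 1.76 from tag 1 to tag 3 and 0.62 from tag 1 to tag 2. Itgb1 was at 956 CPM in tag 3 and at 593 to 729 CPM in the others, and Cdh2 was at 605 CPM in tag 3 and at 294 to 499 CPM in the others. Among genes that act after calcium entry, the protease gene Capn2 ran from 80.2 CPM in tag 4 to 160 CPM in tag 3. Myo1c, a membrane-bound myosin motor, was at 115, 71.5, 143 and 67.9 CPM in tags 1 to 4. Of the NFAT transcription factors downstream of calcineurin, Nfatc3 was at 40.3 to 42.0 CPM and Nfatc2 below 0.7 CPM. Listed genes under 50 CPM over all cells are left out of the counts past 1.5-fold, and some of them differed more. Mylk was at 6.18, 12.2, 2.21 and 4.10 CPM in tags 1 to 4, a ratio of 0.34 (0.24 to 0.48) from tag 2 to tag 4. Pxn, an adhesion gene, was at 24.4, 41.8, 44.5 and 40.7 CPM.

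**Figure D5:**
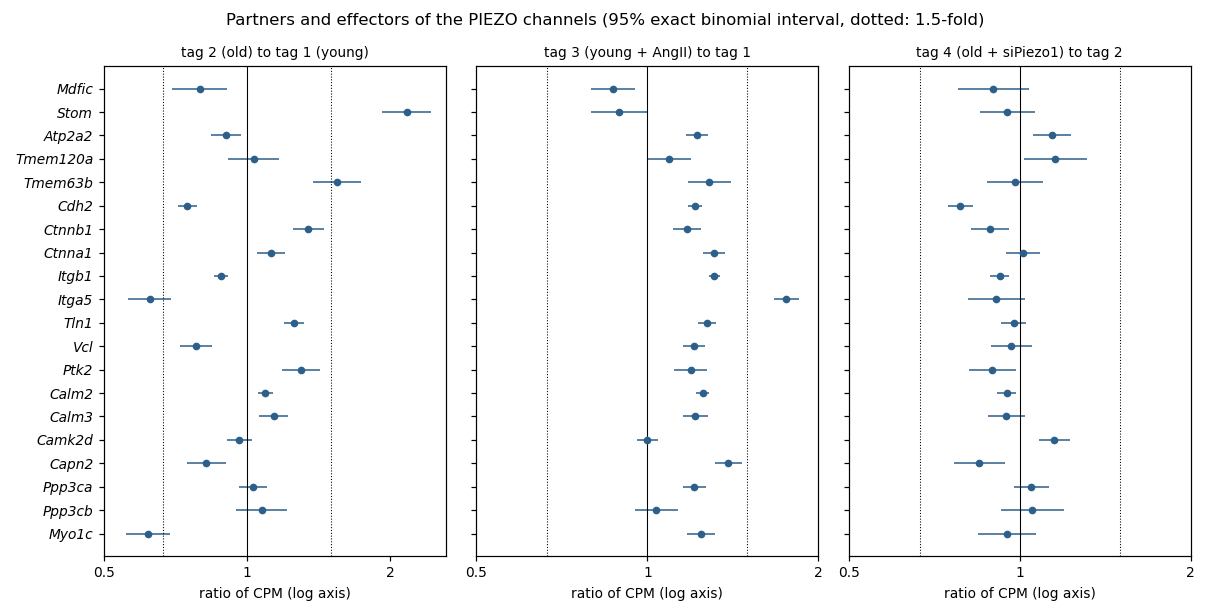
Ratio of CPM (log axis) from tag 1 to tag 2, from tag 1 to tag 3 and from tag 2 to tag 4 for the 20 listed genes of at least 50 CPM, with 95% exact binomial intervals; dotted lines mark 1.5-fold. Stom and Tmem63b pass the upper line from tag 1 to tag 2, where Itga5 and Myo1c (both at 0.62) pass the lower line. Itga5 passes the upper line from tag 1 to tag 3, and no gene passes a line from tag 2 to tag 4.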

How the data were processed

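The deposited values are raw UMI counts that the authors made with Cell Ranger 4, with no cell filter. Barcodes of 2218 or more gene UMIs and 200 or more genes were kept as cells. A cell took tag 1, 2, 3 or 4 when only that tag exceeded 36, 52, 61 or 41 UMIs; 1068 cells with several tags and 5307 with none were left out of comparisons. Cells held 115033686 UMIs. CPM is the gene's UMIs over all UMIs of the cells, with exact Poisson intervals; ratios have exact binomial and shares Clopper-Pearson 95% intervals. UMIs were thinned to 5000 without replacement for classes and shares. No doublet caller was run; the alternatives leave out cells with Xist and Y-linked UMIs or over 3 times the median depth. The ratio was tested on simulated data for tag 4 against tag 2, with 200 of 3287 genes changed 2-fold, and 95.7% of intervals held the true ratio. The simulated counts were independent Poisson draws, so this checks the calculation for counting error and not for the spread between cells. The genes named are the members, the listed partners and state markers, the 5 genes at each end by the ratio least favourable over the 4 tags, and the 5 of highest correlation. A partner gene of the fixed list is not reported here. Further members of the lists were named after their values were seen. The members and lists were chosen with earlier results of these data known. Python packages numpy, scipy and matplotlib were used.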

Additional observations from a re-analysis of the deposited data

Results flagged for a closer look

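Cells outside the comparisons also held both transcripts, far above what 3 UMIs would allow. Piezo1 was at 81.8 CPM (79.0 to 84.6) in the 5307 cells with no tag and at 98.0 CPM (92.8 to 104) in the 1068 cells with several tags. Piezo2 was at 28.6 CPM (27.0 to 30.2) and 33.0 CPM (30.01 to 36.3) in them. All 4 values lie within the range of the tagged cells.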

How the results depend on the processing

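Among 225 values under alternatives, 204 stayed inside the interval of the reported value. Limits on the class moved Piezo1 in dividing cells of tag 2 to 1.26 (at least 20 UMIs), Piezo1 in interferon cells of tag 1 to 0.83 (6 UMIs), Piezo2 in dividing cells of tag 1 to 1.01 (5 UMIs, reversed) and 0.53 (20 UMIs), Piezo2 in contractile cells of tag 4 to 4.07 (20 UMIs) and Piezo2 in replicating cells of tags 2 and 3 to 0.77 and 0.53 (6 UMIs). A clear tag, 3 times the next, gave 1.01 for Piezo2 of tag 2 to tag 1 (reversed), 0.58 for tag 4 to tag 2, 0.79 for Piezo2 in dividing and 0.69 and 0.48 for Piezo1 in dividing and contractile cells of tag 2. Among cells of 1 sex transcript, added after the data were seen, Piezo2 of tag 2 to tag 1 was 1.06 (Y-linked) and 1.02 (Xist), both reversed; in Y-linked cells tag 4 to tag 2 was 0.51 for Piezo2 and 0.82 for Piezo1, and in Xist cells Piezo1 of tag 3 to tag 1 was 1.28. Piezo2 of tag 3 to tag 1 was 1.65 as a mean of cells and 1.64 at 0.5% or more mitochondrial UMIs, also added. Thinned UMIs gave 0.58 for Piezo2 of tag 4 to tag 2, and at 8000 UMIs the share of Piezo2 with to without Piezo1 in tag 1 was 0.76. The cause of these changes was not tested. Interferon cells of tags 2 to 4, under 20 a tag, were given no ratio. Piezo2 values in tag 2 rest on few UMIs (10 in dividing cells). No paired analysis was possible because each culture is 1 sample and the 2 deposited samples are 2 libraries of 1 pool.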
